A study of Rattus norvegicus with 10 samples.

Results

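The genes that carry glucose through glycolysis, from uptake at the cell surface to the export of lactate, were examined in neonatal rat cardiomyocytes, the contractile cells of the newborn rat heart. The set holds 30 genes: glucose carriers, the enzymes of each glycolytic step with their muscle, heart and other isoforms, lactate carriers, and 2 branch enzymes. They were picked by gene name from the 39784 gene names of the deposited RNA-seq tables, where each of the 30 occupied a single entry. The cells, of wild type genotype, had received a vector labelled Ad-Xon-YAP5SA or Ad-Xon-YAP5SA-S94A. YAP is a transcriptional coactivator that reaches DNA mainly through TEAD factors. YAP5SA is an activated form that lacks the serines through which YAP is normally inhibited, and YAP5SA-S94A carries a further change that disrupts TEAD binding. There were 4 libraries, 2 per form, of 4.02 to 5.10 gigabases of aligned sequence each. The other 6 samples of the series, from CUT&RUN, were left aside. As both groups carry an activated YAP, and no GFP or uninfected RNA library was analysed, a difference shows that the forms differ and not which of them departed from unmodified cells. The labels name the libraries biological replicates without saying whether they are separate cultures, so the tests measure the spread between these libraries, which may be technical.

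Glycolysis splits glucose into pyruvate, and most of its steps can be catalysed by several isoenzymes from separate genes. Skeletal and cardiac muscle use a characteristic set, which includes the insulin-responsive carrier GLUT4, the muscle phosphofructokinase subunit, the muscle phosphoglycerate mutase and beta-enolase, while many other tissues and proliferating cells use broadly expressed counterparts. The fetal and newborn heart relies on glucose and lactate more than the adult heart, which burns mainly fatty acids. The isoenzymes of a step carry out the same reaction and differ in affinity, regulation or location in the cell.

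The main pattern was a shift in the balance of isoforms within most steps. Of the 30 genes 8 rose and 9 fell in YAP5SA relative to YAP5SA-S94A (limma adjusted p under 0.05), and 13 were not called. Over all 13420 tested genes 32.9% were called, 17.4% higher and 15.5% lower. Isoforms of a step were paired as a muscle or heart form and a counterpart. The heart form was taken for Pfkfb2, Ldhb and Slc16a1, so the muscle-type subunit Ldha was a counterpart. The pairs were chosen with earlier results of these data known, so the counts by form describe them and are not a test. Of the 9 muscle or heart forms among the paired isoforms 6 fell and 0 rose, with a median log2 fold change of −1.14. Of their 11 counterparts 7 rose and 1 fell, with a median of 0.47, where the median over all tested genes was 0.00015. Eno2, the neuronal enolase, Pfkfb4, and Pfkfb1, a liver and skeletal muscle form, were left out of the pairs. Eno2 fell by 0.53, and Pfkfb4 and Pfkfb1 were not called (log2 fold changes −0.32 and −0.26). Leaving out YAP5SA-S94A replicate 2 reduced the members that rose to 4, all of them counterparts, while 7 muscle or heart forms then fell. Fitting limma with no intensity trend left 5 that rose. Opposite calls within a pair were those of Slc2a3 and Slc2a4, Pfkp or Pfkl and Pfkm, Pfkfb3 and Pfkfb2, Eno1 and Eno3, and Ldha and Ldhb. Those of Pfkl and Ldha were lost under several other settings. Hk2 fell while Hk1 was not called, Pgam1 rose while Pgam2 was not called, and neither lactate carrier was called. The libraries of the 2 groups did not overlap for 12 members higher in YAP5SA and 13 lower, against 34.5% and 33.8% of all tested genes. TPM is a level scaled for transcript length and for the library total. A fold change compares YAP5SA with YAP5SA-S94A as a difference of log2(TPM + 1), so that it is too small for genes of low level. The share of all TPM held by the 30 genes together was 1.49% and 1.39% with YAP5SA and 1.48% and 1.44% with YAP5SA-S94A, ranges that overlap.

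**Figure D1:**
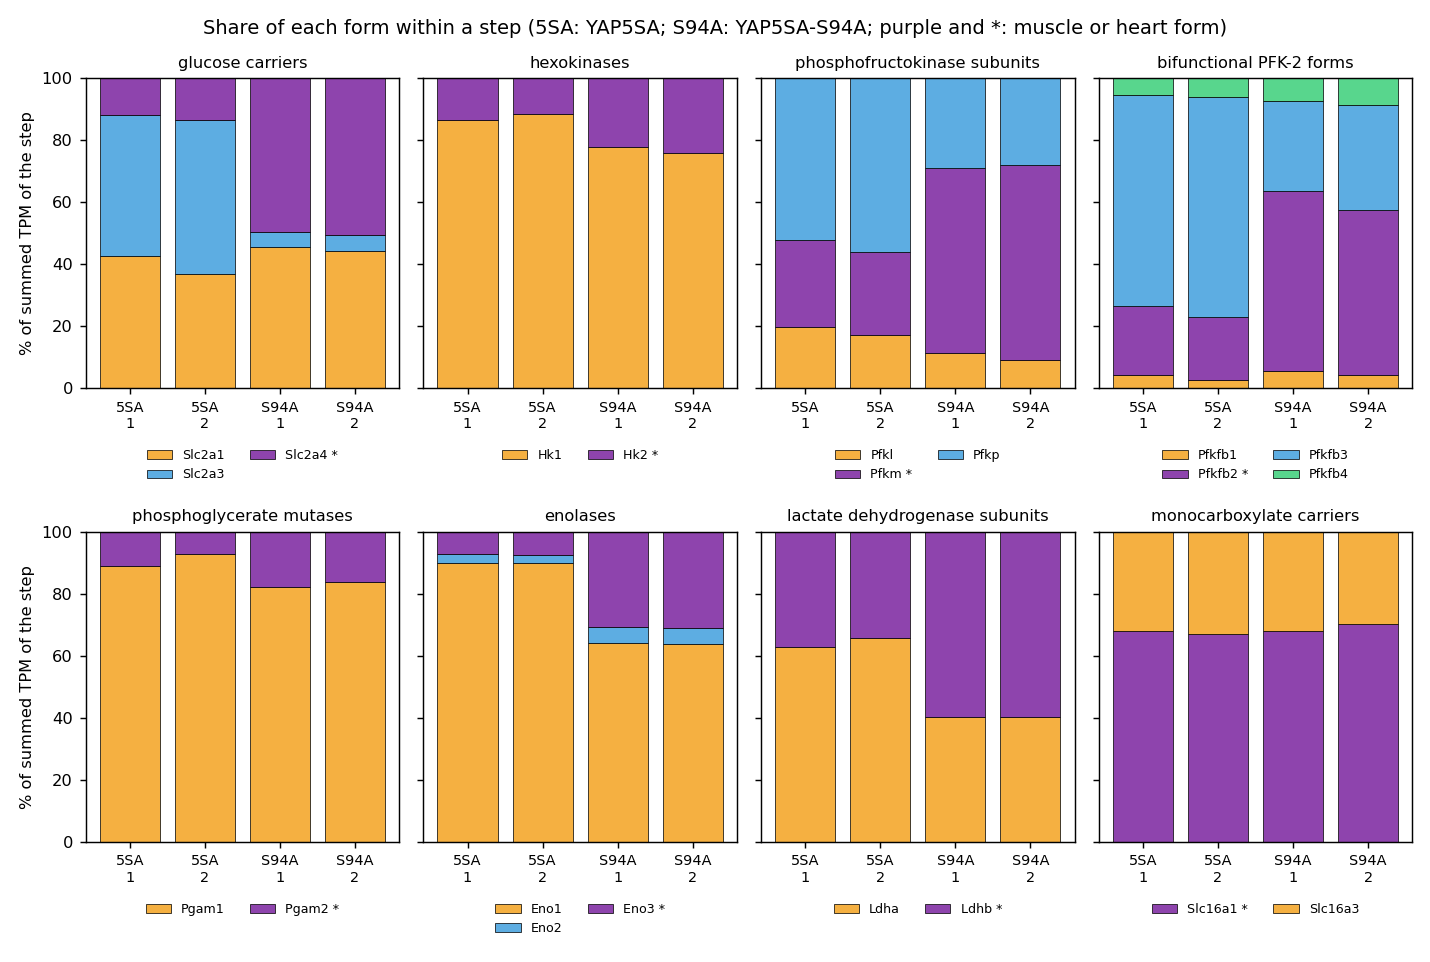
Stacked bars give, for each of the 4 libraries and 8 steps (the aldolases, where the share of the muscle form Aldoa was higher in YAP5SA, are not drawn), the percentage of the step's summed TPM that each gene contributes. The muscle or heart form, in purple, takes a smaller share in both YAP5SA libraries than in either YAP5SA-S94A library at each of the 8 steps drawn, from 11.7% and 13.4% against 49.6% and 50.5% for Slc2a4 among the glucose carriers to 67.98% and 67.1% against 68.2% and 70.2% for Slc16a1 among the lactate carriers.

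Glucose carriers showed the largest single difference. Slc2a3 encodes GLUT3, a high-affinity carrier best known from neurons (chromosome 4, 155960944 to 156026000, rn7). Both YAP5SA libraries had close to the same level, 107.8 and 107.6 TPM, and both YAP5SA-S94A libraries had 10.1 and 10.7 TPM. The 2 groups were far apart and each was tight, with a 10.3-fold ratio of means (log2 fold change 3.25, SE 0.11, limma adjusted p = 1.62e-05). Slc2a4 encodes GLUT4, which moves to the membrane of muscle and fat cells on insulin (chromosome 10, 54666015 to 54671581). Its level was 27.6 and 28.9 TPM in YAP5SA and 103 and 101 TPM in YAP5SA-S94A. It fell by 1.82 on the log2 scale (SE 0.10, limma adjusted p = 4.31e-05), and no library of one group reached the other. Slc2a1, the gene of the ubiquitous basal carrier GLUT1, lay between 79.1 and 101 TPM in all 4 libraries, the YAP5SA pair enclosing the YAP5SA-S94A pair (limma adjusted p = 0.895). Its log2 fold change of −0.028 had a range over the alternatives from −0.21 to 0.15. In both YAP5SA-S94A libraries the order of level was Slc2a4, then Slc2a1 at 94.7 and 88.2 TPM, then Slc2a3 far below. In both YAP5SA libraries it was Slc2a3, then Slc2a1 at 101 and 79.1 TPM, then Slc2a4. The sum of the 3 carriers was 237 and 216 TPM against 208 and 200 TPM.

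The first enzymes of the pathway followed with smaller differences. Hk2, the hexokinase of insulin-sensitive tissues such as muscle (chromosome 4, 115234509 to 115283530), stood at 27.8 and 20.99 TPM in YAP5SA and 53.2 and 54.6 TPM in YAP5SA-S94A. It fell by 1.12 on the log2 scale (SE 0.15, limma adjusted p = 0.0016). Hk1, the more widely expressed hexokinase, was the more abundant of the pair in every library, at 181 and 160 against 188 and 172 TPM, with overlapping groups (limma adjusted p = 0.602). The share of Hk1 in the pair was 87.6% ± 1.25 in YAP5SA and 76.95% ± 1.40 in YAP5SA-S94A (SD, n = 2 each), Hk2 making up the rest. Pgm1, which links glucose-1-phosphate from glycogen to the pathway, stood at 126 and 125 against 118 and 112 TPM, short of the threshold (limma adjusted p = 0.336). Gpi, which isomerises glucose-6-phosphate, stood at 354 and 310 against 377 and 345 TPM, with overlapping groups (limma adjusted p = 0.406).

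At phosphofructokinase, the committed step of glycolysis, the leading subunit differed between the forms. Pfkm, the muscle subunit (chromosome 7, 129221679 to 129259192), stood at 98.3 and 92.4 TPM in YAP5SA and 273 and 280 TPM in YAP5SA-S94A, and fell by 1.53 on the log2 scale (SE 0.09, limma adjusted p = 5.10e-05). Pfkp, the platelet-type subunit (chromosome 17, 63729743 to 63794026), stood at 183 and 192 against 131 and 125 TPM and rose by 0.55 (SE 0.09, limma adjusted p = 0.00416). So Pfkp exceeded Pfkm in both YAP5SA libraries and Pfkm exceeded Pfkp in both YAP5SA-S94A libraries. Pfkl, the liver-type subunit, stood at 70.0 and 58.3 against 51.4 and 40.8 TPM, and its rise of 0.47 lay at the edge of the threshold (limma adjusted p = 0.0495). Pfkl missed the threshold when YAP5SA replicate 1 (adjusted p = 0.132) or YAP5SA-S94A replicate 2 (0.357, with a log2 fold change of 0.31) was omitted, and in 5 other settings. Pfkm made up 27.5% ± 0.725 of the summed phosphofructokinase TPM in YAP5SA and 61.4% ± 2.04 in YAP5SA-S94A (SD, n = 2 each). The sum of the 3 subunits was lower in YAP5SA, at 352 and 343 against 456 and 445 TPM. Pfkm overlaps Senp1 on the opposite strand over 5088 bases, and the use of strand in counting is not given in the sources used here. Senp1 stood at only 9.97 and 10.98 against 8.65 and 7.55 TPM and was not called (log2 fold change 0.34, limma adjusted p = 0.161), in the direction opposite to Pfkm.

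The 250 bases upstream of the annotated starts of Pfkp and Pfkm are shown because these subunits moved in opposite directions. The sequences are RefSeq's, on build GRCr8, a later build than the rn7 coordinates of the tables. Capitals mark GGAATG, the core letters of a TEAD site, and ACGTG or GCGTG, the core letters of a hypoxia response element, on either strand. The Pfkp window is chr17:68639563-68639812 and the Pfkm window chr7:131113849-131114098, both on the plus strand.
Pfkp: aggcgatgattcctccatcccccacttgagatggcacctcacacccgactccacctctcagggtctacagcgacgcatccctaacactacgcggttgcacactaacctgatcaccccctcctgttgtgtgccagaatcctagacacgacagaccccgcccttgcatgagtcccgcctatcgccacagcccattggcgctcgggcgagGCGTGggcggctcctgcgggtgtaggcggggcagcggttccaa
Pfkm: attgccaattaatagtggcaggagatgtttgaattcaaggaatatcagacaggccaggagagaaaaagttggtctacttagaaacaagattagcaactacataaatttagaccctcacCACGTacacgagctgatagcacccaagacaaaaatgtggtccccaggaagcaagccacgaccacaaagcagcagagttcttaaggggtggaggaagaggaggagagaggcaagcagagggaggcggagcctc
Pfkp held GCGTG once and Pfkm held ACGTG once, and GGAATG was in neither window.

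The bifunctional PFK-2 enzymes make and remove fructose-2,6-bisphosphate, the main activator of phosphofructokinase. Pfkfb2, the heart form, which insulin and adrenergic signals activate (chromosome 13, 42147473 to 42174699), stood at 9.69 and 7.55 TPM in YAP5SA and 21.5 and 20.96 TPM in YAP5SA-S94A. Pfkfb3, an inducible form with high kinase activity that is prominent in proliferating cells (chromosome 17, 66983629 to 67064702), stood at 29.6 and 26.7 against 10.7 and 13.3 TPM. Pfkfb2 fell by 1.22 (SE 0.16, limma adjusted p = 0.00156) and Pfkfb3 rose by 1.17 (SE 0.15, limma adjusted p = 0.00143). The order of these genes was reversed between the groups: Pfkfb3 held 69.8% ± 2.10 of the summed PFK-2 TPM in YAP5SA and 31.4% ± 3.44 in YAP5SA-S94A (SD, n = 2 each). The sum of the 4 genes was 43.3 and 37.5 against 36.9 and 39.2 TPM, with overlapping groups. Pfkfb1, the liver and skeletal muscle form, and Pfkfb4, known from testis, were low, at 1.01 to 2.02 and 2.19 to 3.34 TPM, and were not called (limma adjusted p = 0.505 and 0.315).

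The upstream window of Pfkfb3 (GRCr8 chr17:71944683-71944932, plus strand) is shown with the same marking, since it holds the letters CACGTG, an E-box core that contains ACGTG on both strands.
Pfkfb3: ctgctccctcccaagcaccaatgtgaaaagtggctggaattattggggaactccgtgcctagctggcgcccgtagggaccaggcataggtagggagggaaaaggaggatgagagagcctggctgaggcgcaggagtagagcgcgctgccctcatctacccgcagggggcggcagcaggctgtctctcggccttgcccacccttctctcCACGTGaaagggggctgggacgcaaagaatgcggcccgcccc
CACGTG was present in the windows of 3 of the 26 genes of the set that had one, and in 5.79% of the 27457 windows of RefSeq genes.

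The enzymes of the middle of the pathway, where a single gene or a dominant one serves the step, differed less. The minor form Aldoc and the branch enzyme Gpd1 were exceptions, and Pgk1 was called with a smaller difference than these. Aldoa, the muscle-type aldolase, stood at 2093 and 1846 against 2159 and 2103 TPM, which was no call (limma adjusted p = 0.399). Aldoc, the brain-type aldolase (chromosome 10, 63217477 to 63221066), stood at 31.4 and 26.7 against 56.6 and 54.8 TPM and fell by 0.92 (SE 0.12, limma adjusted p = 0.00159). It was the one counterpart among the pairs that fell. Aldoa made up 98.5% and 98.6% of the aldolase TPM in YAP5SA against 97.4% and 97.5% in YAP5SA-S94A. Triosephosphate isomerase, Tpi1, stood at 465 and 504 against 531 and 540 TPM (limma adjusted p = 0.25). Gapdh, the most abundant member in every library and a common reference gene, stood at 4543 and 4042 against 4120 and 3979 TPM, with overlapping groups (log2 fold change 0.08, SE 0.10, limma adjusted p = 0.565). Pgk1, the first step of the pathway that yields ATP (chromosome X, 71271454 to 71287429), stood at 761 and 835 against 609 and 570 TPM and rose by 0.44 (SE 0.09, limma adjusted p = 0.0114). Pgk1 missed the threshold when YAP5SA-S94A replicate 1 (adjusted p = 0.0551) or replicate 2 (0.147) was omitted and with no intensity trend (0.0596). Gpd1, the cytosolic glycerol-3-phosphate dehydrogenase that diverts triose phosphate to glycerol-3-phosphate, stood at 10.2 and 7.84 against 23.5 and 27.9 TPM. Gpd1 fell by 1.42 (SE 0.17, limma adjusted p = 0.00107), and its groups were well apart.

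Phosphoglycerate mutase showed the same arrangement of forms with less certainty. Pgam1, the broadly expressed or brain-type form (chromosome 1, 240723832 to 240731443), stood at 482 and 490 against 358 and 342 TPM and rose by 0.47 (SE 0.09, limma adjusted p = 0.00565). Pgam1 was no longer called when YAP5SA-S94A replicate 2 was left out (adjusted p = 0.0879). Pgam2, the muscle form, stood at 59.1 and 37.0 against 76.6 and 65.7 TPM. Its groups did not overlap, but the YAP5SA libraries differed from each other by more than the groups' edges did, and the gene was not called (log2 fold change −0.59, SE 0.21, limma adjusted p = 0.0711). Pgam2 was called lower when YAP5SA replicate 1 (adjusted p = 0.00386) or YAP5SA-S94A replicate 2 (0.0106) was omitted, after median-of-ratios scaling (0.0394) or removal of mitochondrial genes (0.0314), and when replicate number entered the model as a block (0.00181). When YAP5SA replicate 2 was omitted its log2 fold change was only −0.26 (adjusted p = 0.151).

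Enolase gave one of the clearest exchanges. Eno3, the muscle beta-enolase (chromosome 10, 55370531 to 55375921), stood at 122 and 116 TPM in YAP5SA and at 397.0 and 397.2 TPM in YAP5SA-S94A, and fell by 1.73 on the log2 scale (SE 0.09, limma adjusted p = 3.08e-05). Eno1, the ubiquitous alpha-enolase (chromosome 5, 160719951 to 160731337), stood at 1571 and 1401 against 833 and 816 TPM and rose by 0.85 (SE 0.09, limma adjusted p = 6.87e-04). Eno1 led in all 4 libraries, but its share of enolase TPM was 90.04% ± 0.028 in YAP5SA and 64.0% ± 0.43 in YAP5SA-S94A (SD, n = 2 each). The summed enolase TPM was also higher in YAP5SA, at 1744 and 1556 against 1294 and 1280. Eno2, the neuronal gamma-enolase, stood at 51.7 and 39.5 against 64.4 and 67.1 TPM and fell by 0.53 (limma adjusted p = 0.029). When YAP5SA replicate 2 was omitted the log2 fold change of Eno2 was −0.34 and still called. The Eno2 call was lost without YAP5SA-S94A replicate 1 (adjusted p = 0.0546), without replicate 2 (0.0941), with no filter on low genes (0.0907), without an intensity trend (0.0722) and with the coverage column (0.05001).

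The upstream windows of the enolase pair are shown for the same reason as those of the phosphofructokinase subunits, with the same marking and build (Eno1, chr5:166002617-166002866, and Eno3, chr10:55868936-55869185, both plus strand).
Eno1: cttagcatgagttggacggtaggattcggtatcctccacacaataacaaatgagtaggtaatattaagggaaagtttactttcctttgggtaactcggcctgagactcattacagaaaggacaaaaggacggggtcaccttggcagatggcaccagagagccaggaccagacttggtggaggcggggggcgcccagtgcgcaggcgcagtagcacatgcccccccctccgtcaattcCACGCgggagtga
Eno3: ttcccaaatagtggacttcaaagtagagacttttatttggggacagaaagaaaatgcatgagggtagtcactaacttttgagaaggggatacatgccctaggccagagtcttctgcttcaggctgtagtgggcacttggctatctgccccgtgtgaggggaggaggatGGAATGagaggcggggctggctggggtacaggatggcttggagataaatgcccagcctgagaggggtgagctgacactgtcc
Eno1 held GCGTG once, read as CACGC, and Eno3 held GGAATG once. Among the 26 genes with a window, 4 held GGAATG (Gapdh, Pgam2, Eno3 and Slc16a3), 10 held ACGTG and 10 held GCGTG. Over all 27457 windows the shares were 11.8%, 16.9% and 27.2%. The genes with GGAATG include 1 that fell and 3 that were not called. ACGTG is contained in CACGTG, so these counts overlap, and the presence of letters is not a measurement of binding. Windows of Slc2a3, Slc2a4, Pgk1 and Gpd1 were not used here.

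The end of the pathway changed through lactate dehydrogenase more than through pyruvate kinase. Ldhb, the heart-type subunit, whose tetramers favour the use of lactate (chromosome 4, 175428382 to 175446403), stood at 934 and 863 TPM in YAP5SA and 2005 and 1962 TPM in YAP5SA-S94A. It fell by 1.14 on the log2 scale (SE 0.09, limma adjusted p = 1.38e-04). Ldha, the muscle-type subunit of glycolytic and proliferating cells (chromosome 1, 97371823 to 97381247), stood at 1592 and 1654 against 1349 and 1333 TPM and rose by 0.27 (SE 0.08, limma adjusted p = 0.0435). Ldha dropped out of the calls when either YAP5SA-S94A library was omitted (adjusted p = 0.342 for replicate 1 and 0.378 for replicate 2), with no filter on low genes (0.121), with median-of-ratios scaling (0.0703), with mitochondrial genes left out (0.0868) and without an intensity trend (0.145). Ldhb was the major subunit transcript in both YAP5SA-S94A libraries, at 59.8% and 59.6% of the pair, and the minor one in both YAP5SA libraries, at 37.0% and 34.3%. The sum of the pair was lower in YAP5SA, at 2525 and 2517 against 3354 and 3295 TPM. Pkm, which encodes the M1 and M2 pyruvate kinases by alternative splicing, stood at 659 and 616 against 586 and 543 TPM, short of the threshold (limma adjusted p = 0.185). The gene-level tables do not separate its splice forms.

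Lactate carriers were not called. Slc16a1, which encodes MCT1, the carrier of heart and oxidative muscle, stood at 168 and 153 against 141 and 148 TPM (limma adjusted p = 0.284). Slc16a3, which encodes MCT4, the carrier of cells that export lactate, stood at 79.2 and 74.9 against 65.8 and 62.7 TPM (limma adjusted p = 0.094), and was called higher without YAP5SA replicate 2 (adjusted p = 0.0467). Slc16a3 overlaps Csnk1d on the opposite strand over 573 bases, and Csnk1d was the more abundant, at 86.7 to 104.5 TPM.

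**Figure D2:**
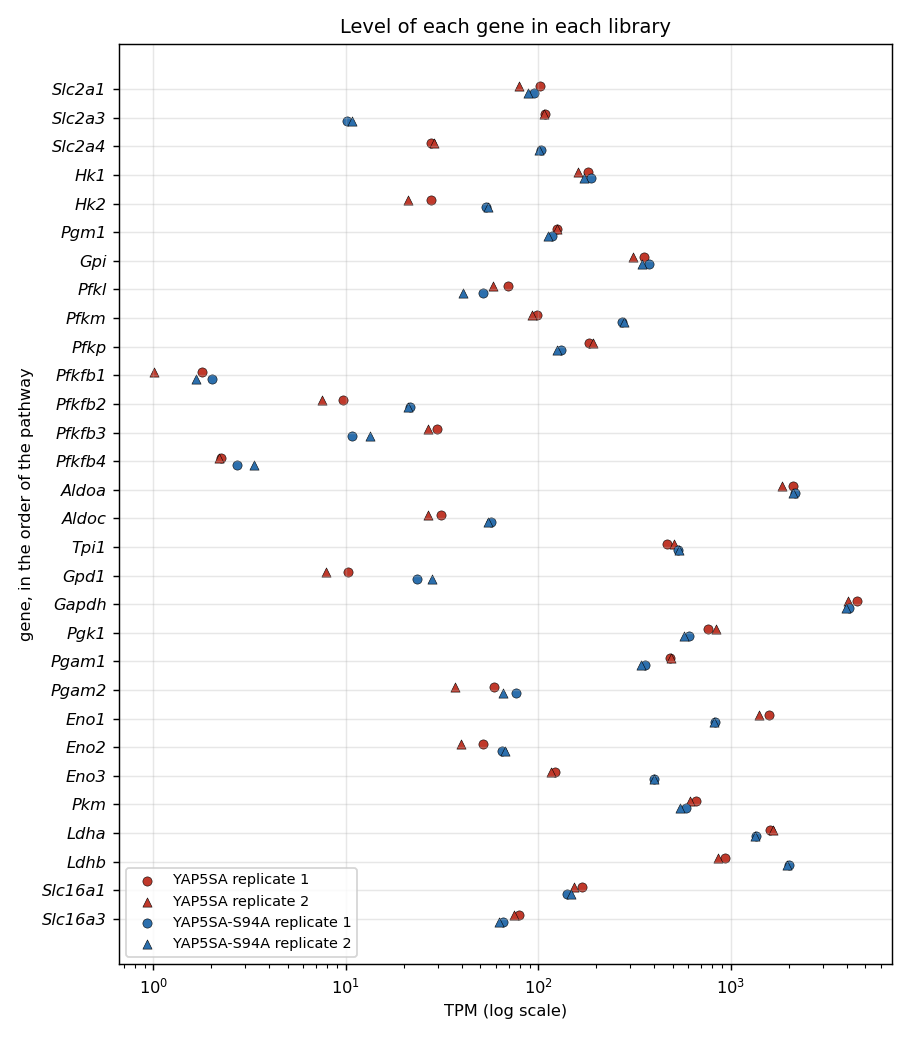
Each row is a gene in the order of the pathway and each point 1 library, with TPM on a log axis, YAP5SA in red and YAP5SA-S94A in blue. Levels span from about 1.01 TPM (Pfkfb1) to 4543 TPM (Gapdh), and Slc2a3, Slc2a4, Eno3 and Pfkm show the widest gaps between the colours.

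The balance of isoforms can be read within each library as a log2 ratio of TPM + 1, which hardly depends on how the libraries are scaled against each other. For 11 pairs of a muscle or heart form and a counterpart, the log2 ratio of the former to the latter was lower in both YAP5SA libraries than in either YAP5SA-S94A library in 10 pairs. The largest shift was that of Slc2a4 to Slc2a3, from 3.23 and 3.12 in YAP5SA-S94A to −1.93 and −1.86 in YAP5SA, a difference of −5.07. Eno3 to Eno1 differed by −2.58, Pfkfb2 to Pfkfb3 by −2.39, Pfkm to Pfkp by −2.08, Pfkm to Pfkl by −1.997 and Ldhb to Ldha by −1.42. Slc2a4 to Slc2a1 differed by −1.79, Pgam2 to Pgam1 by −1.06 and Hk2 to Hk1 by −1.05. The exception in direction was Aldoa to Aldoc, which was higher in YAP5SA by 0.81, and the ratio of Slc16a1 to Slc16a3 differed by −0.11 with groups only just apart (1.08 and 1.02 against 1.09 and 1.23), a difference of −0.042 when YAP5SA-S94A replicate 2 was omitted. With 2 libraries against 2, an exact two-sided permutation test cannot give a p below 0.333, and each of the 11 pairs gave that value, also when adjusted over the 11. Pairs that share a gene, such as those with Slc2a4 or Pfkm, are not separate results. The pairs were chosen with earlier results of these data known, so the count of 10 describes them and does not test a pattern. Over all tested genes 68.2% had groups that did not overlap, so the separation of groups alone is common in these libraries.

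**Figure D3:**
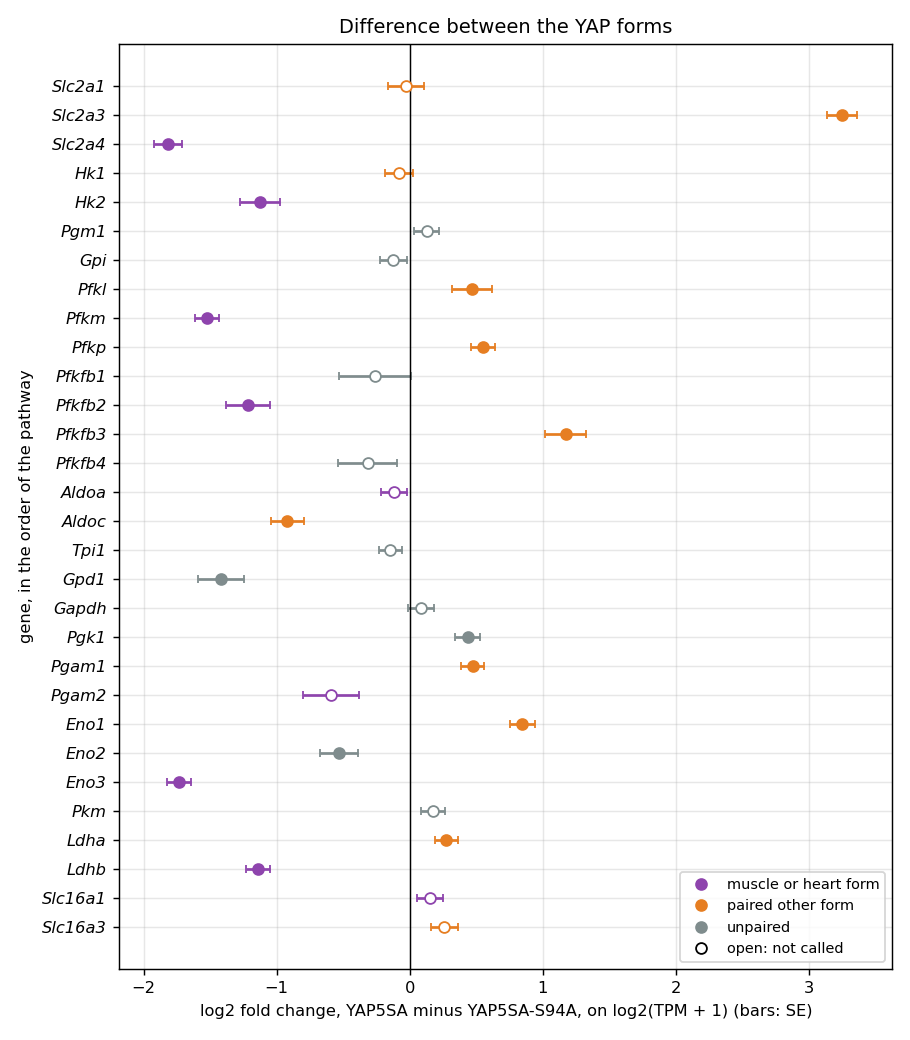
Points give the log2 fold change of each of the 30 genes with its standard error, coloured by form, with open points for genes that were not called. The purple muscle or heart forms lie left of 0 except Slc16a1, and the orange counterparts lie right of 0 except Aldoc, Hk1 and Slc2a1, the last with a sign that changes without YAP5SA replicate 2 or YAP5SA-S94A replicate 1 and Hk1 with one that changes without YAP5SA replicate 2.

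Genes next to glycolysis were summarised from lists of other isoforms and of branch pathways. Their counts are read against the 17.4% of all tested genes that rose and the 15.5% that fell. Of 19 tested genes of the glycogen and hexosamine branches 12 fell (63.2%) and 2 rose (10.5%), with a median log2 fold change of −0.54. Ppp1r3c, a glycogen-targeting subunit of protein phosphatase 1, stood at 85.1 and 78.2 against 228 and 232 TPM and fell by 1.48, its muscle relative Ppp1r3a by 1.35, the glycogen branching enzyme Gbe1 by 0.87, and Sord, the sorbitol dehydrogenase of the polyol route, by 1.58. Gfpt1 and Uap1 were the 2 that rose (chosen here after their values were seen), enzymes that lead to UDP-N-acetylglucosamine (log2 fold changes 0.73 and 0.82). Together with these Pgm3, a phosphomutase of the same hexosamine route held in the list of other isoforms, stood at 33.5 and 34.96 against 12.1 and 14.0 TPM and rose by 1.33. Gfpt2 and Gnpnat1 of the glycogen and hexosamine list were not called (0.20 and 0.14), and Ogt and Oga of that list fell by 0.88 and 0.52. In the pentose phosphate list 2 of 11 tested genes rose (18.2%, near the share of all genes) and 0 fell at the limma adjusted threshold. The 2 were Prps1 and Prps2 (0.80 and 0.95), which make phosphoribosyl pyrophosphate for nucleotide synthesis from the pathway's product, while Pgd and Tkt, named after their values were seen, had log2 fold changes of 0.09 and −0.0052 and were not called.

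Of 21 tested further glycolysis and transport isoforms 3 rose (14.3%) and 7 fell (33.3%), with a median of −0.33. Only 3 fell when YAP5SA-S94A replicate 2 was omitted. The median was −0.20 without YAP5SA replicate 2, and −0.14 both with the coverage column and with no filter on low genes. Mpc1, a subunit of the mitochondrial pyruvate carrier, stood at 255 and 254 against 506 and 497 TPM and fell by 0.97. Its partner Mpc2, named after its values were seen, fell by 0.48. Bsg, the chaperone that brings MCT1 and MCT4 to the membrane, rose by 0.63, and Pgm5, a muscle phosphoglucomutase relative without known enzyme activity, fell by 1.26. Other isoforms that define liver or testis glycolysis, such as Pklr, Gapdhs, Pgk2 and Ldhc, stood below 1 TPM in every library.

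Regulators tied to oxygen, glucose or insulin moved both ways. Of 21 tested genes of the hypoxia pathway and its targets outside glycolysis 3 rose (14.3%, near the share of all genes) and 7 fell (33.3%), with a median of −0.12. Leaving out YAP5SA-S94A replicate 1 gave 3 that fell and a median of −0.19, and leaving out replicate 2 gave 4 that fell and a median of −0.061. The median was −0.23 with the coverage column, −0.27 at a minimum mean TPM of 5, −0.19 with mitochondrial genes left out and −0.066 with no filter. Mxi1 fell by 1.33, Vegfa by 1.12 and the oxygen-sensing hydroxylase gene Egln1 by 0.72, while the collagen prolyl hydroxylase gene P4ha1 rose by 1.01. Hif1a, chosen after its values were seen, had 56.1 and 51.7 against 74.0 and 77.9 TPM and fell by 0.49. The list named glucose-responsive regulators also holds insulin-signalling and metabolic genes, such as Akt2, Tbc1d4 and Ppargc1a. Of its 19 tested genes 2 rose (10.5%) and 9 fell (47.4%), with a median of −0.25 (−0.41 at a minimum mean TPM of 5). Omitting YAP5SA-S94A replicate 1 gave a median of −0.16 and 1 that rose. Txnip, a glucose-induced inhibitor of glucose uptake, stood at 104 and 90.9 against 236 and 221 TPM and fell by 1.22. Arrdc4, Mlxip and Mlx of the same list, named after their values were seen, were not called (log2 fold changes −0.14, 0.022 and −0.041). The insulin receptor gene Insr fell by 0.90 and the orphan receptor gene Esrrg by 1.11, the latter by 0.44 on the coverage scale. Myc, a transcription factor known to activate glycolytic genes, stood at 26.6 and 24.6 against 8.91 and 8.60 TPM and rose by 1.45.

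**Figure D4:**
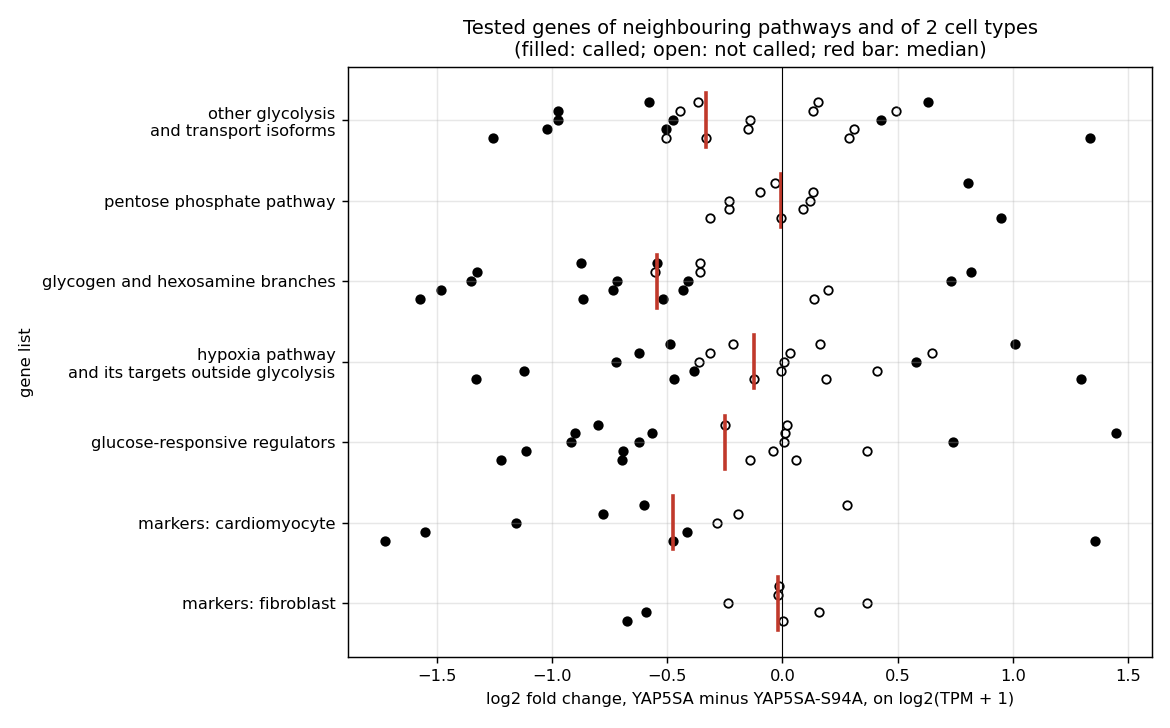
Each point is the log2 fold change of a tested gene of 5 neighbouring lists and of the cardiomyocyte and fibroblast markers, filled where called, and the red bar is the list's median. The median lies at −0.54 for the glycogen and hexosamine genes, near 0 for the pentose phosphate genes and at −0.47 for the cardiomyocyte markers.

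Markers of cell types were read beside these results. All 11 cardiomyocyte markers were present, and 7 fell (63.6%) and 1, Nppa, rose (9.09%). Over all tested genes 15.5% fell and 17.4% rose. With no filter on low genes, and also with no intensity trend, 5 of the markers fell. Only 4 fell when YAP5SA-S94A replicate 2 was omitted, and 2 rose without YAP5SA replicate 2. Their summed TPM was 34012 and 33977 in YAP5SA and 37648 and 37638 in YAP5SA-S94A. It was lower in YAP5SA, as were the 6 that were called among the 9 muscle or heart forms of glycolysis. The sum holds the rise of Nppa, an atrial and fetal natriuretic peptide gene, and without it the sums were 24386.5 and 24503 against 33905 and 33924 TPM, a 0.721-fold ratio. Myh6, the adult-type myosin heavy chain of rodents, stood at 458 and 413 against 1388 and 1499 TPM and fell by 1.73. The cardiac troponin I gene Tnni3 fell by 1.55 and the calcium pump regulator Pln by 1.16. These and Myh6 were the largest falls of the list. Ryr2 fell by 0.60 and Tnnt2 by 0.42, and Actn2 was not called with a log2 fold change of 0.28. The median of the list was −0.47. The 8 fibroblast markers were also abundant, with sums of 8527 and 6748 against 7243 and 6888 TPM that overlap. By the limma threshold 0 of them rose and 2 fell (25%), and 1 rose with the replicate number as a block. Sums were low for endothelial (21.2 to 32.7 TPM), macrophage (105 to 129 TPM), red blood cell (4.86 to 6.67 TPM) and neuron and Schwann cell markers (2.30 to 5.41 TPM), and 197 to 294 TPM for smooth muscle and pericyte markers. The endothelial, smooth muscle and macrophage sums were lower in both YAP5SA libraries, but single genes carried 2 of them. Without Kdr, which fell by 2.22, the endothelial sum was higher in YAP5SA (17.3 and 20.0 against 11.4 and 11.6 TPM), with Tek rising by 1.42. Without Abcc9, which fell by 2.77, the smooth muscle sums overlapped (207 and 183 against 179 and 193 TPM). In the macrophage list Csf1r rose by 1.40 while Cd68 and C1qa fell by 0.60 and 0.68. These marker genes were picked out after their values were seen. Snap25, Alas2, Hbb and Cldn5 were listed at 0 in all 4 libraries. In these bulk libraries fewer cells of a type and less RNA per cell cannot be told apart, and the part of cell composition in the isoform differences was not tested. The mitochondrial genome's transcripts had 7.53% and 10.2% of TPM with YAP5SA against 12.6% and 14.0% with YAP5SA-S94A. With them left out 6 of the 30 genes rose and 10 fell.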

How the data were processed

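RNA-seq tables of 4 libraries were used. Per the submitters' processing notes the reads went through fastp, HISAT2 2.2.1 and StringTie 2.2.1 on the rat build rn7, with no settings given. Per the file headers, the authors gave each gene a TPM value, an FPKM value and a per-base coverage signal. TPM as deposited sums to the same total in each library. FPKM was used only with coverage, to estimate the aligned sequence per library (99th percentile of their ratio), and coverage only as an alternative measure. Reads per gene were not used, so no counting interval is given.

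TPM was summed by gene name. The filter was a mean TPM of 1 or more, and the test was that of limma (version 3.58.1, run in R 4.3.3) applied to log2(TPM + 1). Its variance prior followed an intensity trend, with 5.09 prior beside 2 residual degrees of freedom. Genes were called at a Benjamini-Hochberg adjusted p under 0.05 over all 13420 genes. All 30 genes of the set passed the filter. Every member is named, and of each other list up to 4 called genes of smallest p. The members, lists and pairs were chosen with earlier results of these data known. The alternatives were another pseudocount (0.1), no filter or a minimum of 5, median-of-ratios scaling, mitochondrial genes left out, no intensity trend, the replicate numbers as a block, each library left out in turn and, added after seeing the files, coverage scaled to the same sum. Upstream windows came from RefSeq (GRCr8, 26 of 30 genes). Other steps used Python 3.11.15 with numpy 2.4.6 and pandas 2.3.3, and plots used matplotlib 3.10.9. RefSeq lists up to 78 pseudogenes named after Gapdh and 30 each after Eno1 and Ldha. Those found in the tables summed to at most 0.847% of the parent gene's mean TPM, but how reads shared with them were divided is not given in the sources used here.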

Additional observations from a re-analysis of the deposited data

How the results depend on the processing

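Of the 17 called genes 12 kept their call in all 12 alternatives: Slc2a3, Slc2a4, Hk2, Pfkm, Pfkp, Pfkfb2, Pfkfb3, Aldoc, Eno1, Eno3, Ldhb and Gpd1. The other 5, Pfkl, Pgk1, Pgam1, Eno2 and Ldha, kept their direction and lost the call in at least 1. In 4 of the 12 a library is left out, so that 1 group is a single library assumed to vary like the other group, with 1 residual degree of freedom. With a YAP5SA-S94A library left out the prior degrees of freedom of limma were infinite, so no gene's own spread entered, and these p-values are weak support. In the 8 alternatives with all libraries 13 calls were kept, the 12 and Pgam1. The number of members that rose was 5 without an intensity trend against 8, and lay between 4 and 9 with a library left out. The number of counterpart forms that rose lay between 4 and 8 with a library left out. Over all genes the number lower was 1299 to 2891 with a library left out, against 2083. Genes that were not called changed sign in 4 instances: Gapdh without YAP5SA replicate 1 (−0.0024, range with a library left out to 0.17), Hk1 without YAP5SA replicate 2 (0.0069, range from −0.17), and Slc2a1 without YAP5SA replicate 2 (0.15) and without YAP5SA-S94A replicate 1 (0.023, range from −0.21). The cause was not tested. With no filter 1821 genes rose and 1392 fell, and with mitochondrial genes left out 2134 and 2660, against 2337 and 2083. With the replicate number as a block 8 members rose and 10 fell, the added one being Pgam2. The numbers are those of the sample titles, the library names number the libraries differently, and neither is stated to mark a shared culture, so this value says little. Deviations of same-numbered libraries correlated at 0.101 across genes. Each isoform pair kept the sign of its difference with a pseudocount of 0.1 and with each library left out. With 2 libraries per group, low genes such as Pfkfb1 and Pfkfb4 were measured least precisely.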
